A study of Homo sapiens with 18 samples.

Results

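The 9 genes described here carry glucose into the cell and through glycolysis: SLC2A1, HK2, GPI, PFKP, TPI1, GAPDH, ENO1, PKM and LDHA. They were chosen by name, and each is represented by the MYC peaks that overlap a window of 2 kb on each side of its transcription start site on hg19. Merging the peaks of all libraries where they overlapped by at least 1 bp gave 43222 regions, and 20 of them lay in the 9 windows. In each window the region with the highest strength in the scramble libraries, 9 in all, was followed across the groups. Strength is the mean, over those libraries, of the percentile of the region's best peak within its own list, ranked by q-value.

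MYC was mapped by chromatin immunoprecipitation and sequencing (ChIP-seq) in MCF10A.PM cells. MCF10A is an immortalised human breast epithelial line, and every group studied here carried the plasmids pBABE-hygro-MYC and pMN-IRES-GFP-PI3KH1047R, so that MYC and a mutant PI3K were ectopic in the controls too. An additional, doxycycline-inducible plasmid carried a hairpin against G9a, a histone H3 methyltransferase (groups shG9a_1 and shG9a_4), or a scramble hairpin (shSCR). All cells, shSCR included, received doxycycline at 2 µg/mL for 72 h, and each group had 3 biological replicates, per the series design. The comparison asks how MYC binding at these genes differs when G9a is knocked down. Peak lists hold no expression values, so the level of G9a and MYC in each culture, the cell type and the expression of the 9 genes were not checked here.

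Glycolysis splits glucose to pyruvate and yields ATP without oxygen, and lactate dehydrogenase returns the NAD+ that the pathway uses. MYC is a basic helix-loop-helix factor that pairs with MAX and binds E-box DNA, with the strongest preference for the letters CACGTG. Genes of glucose uptake and glycolysis are among its best known targets in proliferating cells.

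The peak lists, taken on chromosomes 1 to 22 and X, had 113, 11462 and 13068 entries in shG9a_1, 11168, 17454 and 12922 in shG9a_4, and 29827, 34738 and 20118 in shSCR. The lengths of the shG9a lists did not reach those of the shSCR lists. Replicate 1 of shG9a_1 stood apart with 113 peaks, and results are given with and without it. Read depth was not listed. As a multiple of the shSCR mean, the ChIP depth recovered from the peak values was 0.839 and 1.09 in shG9a_1 replicates 2 and 3, 1.90, 1.05 and 2.65 in shG9a_4, and 1.04, 1.04 and 0.926 in shSCR.

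Promoters of 4 of the genes are printed to show the window in which the letters that MYC prefers were sought, and 3 of the 4 genes hold them. HK2 and SLC2A1 are shown because their regions had the highest and the lowest strength, and LDHA and GAPDH, picked after their values were seen, because they were the other members with CACGTG. Each runs 5′ to 3′ on the gene's strand from 250 bases before to 50 after a RefSeq start on GRCh38.p14, and capitals mark CACGTG. The peaks are on hg19, so no base of these sequences is placed within a peak.

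HK2, second start, chr2:74834920-74835219, plus strand: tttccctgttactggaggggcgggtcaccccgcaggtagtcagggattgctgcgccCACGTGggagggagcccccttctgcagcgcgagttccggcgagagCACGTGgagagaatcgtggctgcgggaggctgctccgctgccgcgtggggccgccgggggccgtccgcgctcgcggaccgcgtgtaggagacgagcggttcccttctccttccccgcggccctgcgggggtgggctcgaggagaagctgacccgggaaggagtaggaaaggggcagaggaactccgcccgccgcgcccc

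HK2, first start, chr2:74833877-74834176, plus strand: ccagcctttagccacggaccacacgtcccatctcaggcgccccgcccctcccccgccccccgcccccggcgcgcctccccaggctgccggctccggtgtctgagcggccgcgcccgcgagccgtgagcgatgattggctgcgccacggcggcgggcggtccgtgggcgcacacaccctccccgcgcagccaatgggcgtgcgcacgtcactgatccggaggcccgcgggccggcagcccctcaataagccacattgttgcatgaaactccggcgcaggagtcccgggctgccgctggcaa

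LDHA, first start, chr11:18394313-18394612, plus strand: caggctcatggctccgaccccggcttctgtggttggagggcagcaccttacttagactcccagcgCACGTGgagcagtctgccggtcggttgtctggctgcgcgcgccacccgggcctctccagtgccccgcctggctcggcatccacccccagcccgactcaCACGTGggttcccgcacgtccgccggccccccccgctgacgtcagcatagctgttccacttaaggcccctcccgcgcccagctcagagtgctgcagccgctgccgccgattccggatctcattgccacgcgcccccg

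GAPDH, chr12:6535014-6535313, plus strand: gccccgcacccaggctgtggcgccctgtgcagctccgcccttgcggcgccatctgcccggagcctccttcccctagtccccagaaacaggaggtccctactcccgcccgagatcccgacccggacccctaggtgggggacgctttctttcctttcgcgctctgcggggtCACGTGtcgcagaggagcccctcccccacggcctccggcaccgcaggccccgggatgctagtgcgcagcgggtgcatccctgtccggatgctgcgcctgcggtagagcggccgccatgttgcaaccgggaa

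SLC2A1, chr1:42958819-42959118, minus strand: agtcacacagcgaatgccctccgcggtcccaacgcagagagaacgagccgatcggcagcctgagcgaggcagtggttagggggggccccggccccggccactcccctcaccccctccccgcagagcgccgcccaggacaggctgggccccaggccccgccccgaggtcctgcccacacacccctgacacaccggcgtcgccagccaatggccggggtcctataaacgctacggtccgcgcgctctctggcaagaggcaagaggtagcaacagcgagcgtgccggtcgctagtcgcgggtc

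CACGTG, which reads the same on both strands, lay in a window of 3 of the 9 genes, against 8.77% of the 27305 genes with a RefSeq promoter. Over single windows the letters were in 3 of the 15 of these genes and in 7.26% of all 35116. A gene with more starts has more windows, and PFKP had 4, LDHA, HK2 and TPI1 had 2 each and the others 1. LDHA had CACGTG 185 and 87 bp before its first start, HK2 had it 194 and 149 bp before its second, and GAPDH had it 81 bp before its start. The looser pattern CANNTG, which includes every CACGTG and is also its own reverse complement, lay in 7 of 9 genes and in 73.1% of all genes. ENO1 and SLC2A1 held neither pattern in this window.

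Peaks were called at most of the glycolysis genes in every library but 1. The shG9a_1 libraries called 2, 9 and 8 of the 9 genes, each shG9a_4 library called 9, and each shSCR library called 9. Of all regions called in every shSCR library, the shG9a_1 libraries called 0.767%, 57.7% and 64.5%, the shG9a_4 libraries 58.3%, 77.3% and 66.3%, and each shSCR library 100% by construction. The mean was 7.67 ± 2.80 genes (SD, n = 6) over the shG9a libraries, or 8.8 ± 0.447 (SD, n = 5) without shG9a_1 replicate 1, and 9 (n = 3) in shSCR. All 9 strongest regions were reproducible in shSCR, meaning called in all 3 of its libraries, as were 32.9% of all merged regions. Since each was taken for its strength in shSCR, nothing is read from that share or from the kept count against all regions. Over all 20 regions of the windows, 16 were reproducible in shSCR, and of those 8 were kept, 7 partial and 1 lost. Of the 9 strongest, 8 were kept, meaning that 5 or 6 of the shG9a libraries called them, against 36.9% of the 14209 reproducible regions. TPI1 alone was partial, as were 53.6% of those regions, and none of the 9 was lost from all shG9a libraries, against 9.49%. With shG9a_1 replicate 1 or replicate 3 left out, and kept then meaning at least 4 of the 5 shG9a libraries, all 9 were kept. With shG9a_1 replicate 1 left out and each other list limited to its 11168 top peaks by q-value, the mean was 8.4 genes in shG9a and 8.333 in shSCR, and SLC2A1 was no longer reproducible in shSCR. HK2 and ENO1 were called in all 9 libraries, which held for 0.767% of the reproducible regions. Both regions were also taken for their strength in shSCR, so nothing is read from that share either.

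The strength of the 9 regions differed widely, and kept calls went with strength over the whole genome. HK2 and ENO1 stood at ranks 67 and 78 of the 14209 reproducible regions by strength, and LDHA at rank 227. Reproducible regions were split by strength into deciles, and these 3 fell in the strongest, where 99.2% of regions were kept. GAPDH, at rank 1882, lay in the next decile, where 90.8% were kept. PKM at rank 3362 and TPI1 at rank 3822 lay in a decile in which 67.8% were kept, and PFKP at rank 4323 and GPI at rank 4606 in one with 47.9%. SLC2A1, at rank 8415, lay in a decile of which 16.3% was kept, and it was kept. Its −log10 q was 2.29 and 9.19 in shG9a_1 replicates 2 and 3, and 4.18, 5.56 and 3.74 in shG9a_4. With a limit of 5 on −log10 q, an alternative in the closing section, SLC2A1 was partial. The median strength of the 9 was 84.9, against 66.9 over all reproducible regions. Each of the 9 was taken as the strongest of its window, so nothing is read from that difference. Over all 20 regions of the windows, of which 4 were not reproducible, the median was 63.9.

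**Figure D1:**
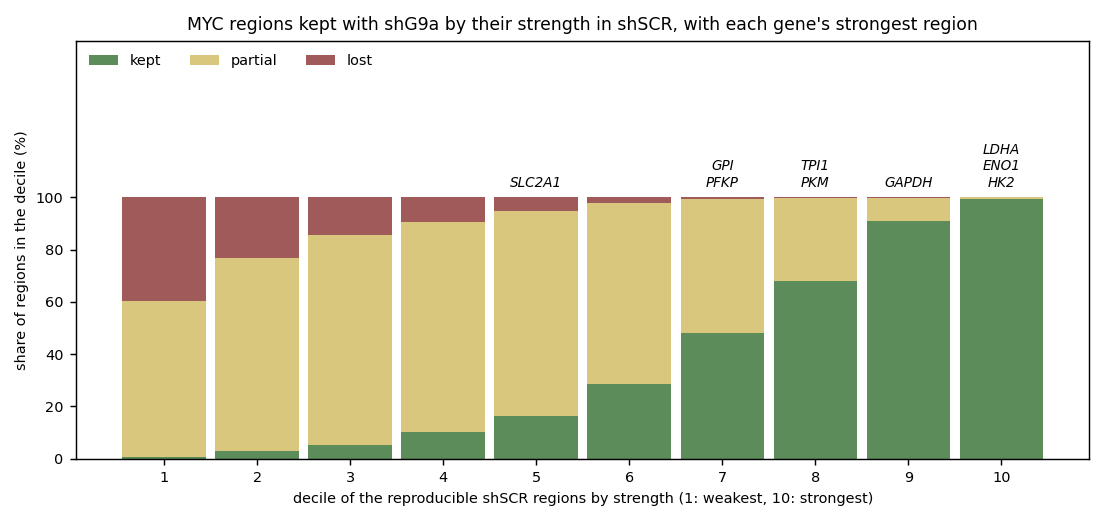
Share of the 14209 regions reproducible in shSCR (vertical axis, percent) that were kept, partial or lost with G9a hairpins, by decile of strength (horizontal axis), with the name of each glycolysis gene above the decile of its strongest region. The kept share goes from 0.775% in the weakest decile to 99.2% in the strongest, which holds HK2, ENO1 and LDHA, while SLC2A1 sits in the fifth.

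SLC2A1 encodes GLUT1, the facilitative transporter that brings glucose across the plasma membrane. Its strongest region (chr1:43423770-43424907, hg19) covered the start, and the summit of its best peak lay 132 to 911 bp downstream. Summit ranges here and for the genes that follow are those of the best peak of the region in each library, by q-value. The authors' fold enrichment at its best peak was 4.34 and 8.10 in shG9a_1 replicates 2 and 3, 5.21, 5.97 and 4.32 in shG9a_4, and 6.60, 11.5 and 6.58 in shSCR. Here and for the genes that follow, this fold is the authors' value against a local background, set side by side without a test. Whether that background came from the DNA input samples is not given in the sources used here. By q-value SLC2A1 was the weakest of the genes called in 7 of the 8 libraries other than shG9a_1 replicate 1, and the sixth in shG9a_1 replicate 3. The peak of shG9a_1 replicate 2 ranked 10799 of 11462, close to the end of that list. Of the 5 shG9a libraries with a call, 4 had 1 peak here and shG9a_4 replicate 1 had 3, whereas each shSCR library had 2.

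HK2, hexokinase 2, phosphorylates glucose and so commits it to the cell. Its strongest region (chr2:75061604-75062852, hg19) lay downstream of the start, with best-peak summits between 990 and 1152 bp. The authors' fold was 6.81, 23.6 and 20.4 in shG9a_1, 18.3, 31.7 and 26.1 in shG9a_4, and 39.6, 51.7 and 40.8 in shSCR. Within their own lists the shSCR peaks ranked 84, 79 and 79. A second, weaker region spanned the start itself and was called in 1 of 3 shG9a_1, 2 of 3 shG9a_4 and all 3 shSCR libraries. RefSeq gives HK2 a further start 1043 bp downstream of its first, and the window of that start holds both CACGTG matches printed above. Since the peaks and the RefSeq starts are on different builds, they were not aligned.

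GPI, glucose-6-phosphate isomerase, converts glucose-6-phosphate to fructose-6-phosphate. Its strongest region (chr19:34855802-34856495, hg19) had best-peak summits 455 to 665 bp downstream of the start. The fold was 7.59 and 4.62 in shG9a_1 replicates 2 and 3, 4.16, 8.35 and 5.24 in shG9a_4, and 9.48, 14.5 and 8.82 in shSCR. Its second region, at a median of 1029 bp downstream, was called in no shG9a library and in all 3 shSCR libraries. It was the only lost region in any of the 9 windows, and its strength of 26.9 put it in the weakest decile, where 39.7% of regions were lost.

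PFKP is the platelet form of phosphofructokinase, which adds the second phosphate to the hexose at the main control step of the pathway. Its strongest region (chr10:3110226-3111498, hg19) had best-peak summits 762 to 1072 bp downstream. The fold was 5.74 and 8.10 in shG9a_1 replicates 2 and 3, 6.00, 13.9 and 11.1 in shG9a_4, and 10.4, 17.1 and 8.76 in shSCR. Unlike at GPI, the values of the groups overlapped, with 2 shG9a_4 libraries above the lowest shSCR library. A weaker region at the start was called in 1 of 3 shG9a_1, 1 of 3 shG9a_4 and 3 of 3 shSCR libraries.

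TPI1, triose phosphate isomerase, interconverts the pair of triose phosphates made when the hexose is split. It had a single region (chr12:6976913-6977359, hg19), the narrowest of the 9 at 447 bp, with best-peak summits 456 to 596 bp downstream. The fold was 8.03 in shG9a_1 replicate 2, the only shG9a_1 library that called it, 11.1, 9.17 and 6.19 in shG9a_4, and 7.92, 19.4 and 11.6 in shSCR. The lowest shSCR value thus lay below those of 3 of the shG9a libraries.

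GAPDH, glyceraldehyde-3-phosphate dehydrogenase, carries out the step that makes NADH. Its strongest region (chr12:6642436-6644076, hg19) was the only one whose best peak had its summit upstream in every library, at -454 to -105 bp with the start at 0. The fold was 10.3 and 12.7 in shG9a_1 replicates 2 and 3, 10.3, 16.1 and 10.4 in shG9a_4, and 19.6, 18.0 and 9.89 in shSCR. The value of shSCR replicate 3 was below all 5 shG9a values, so on the authors' fold the groups overlapped. A second region at a median of 776 bp downstream was called in 2 of 3 shG9a_1, 2 of 3 shG9a_4 and 3 of 3 shSCR libraries.

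ENO1, enolase 1, forms phosphoenolpyruvate. Its strongest region (chr1:8937931-8939731, hg19) was the widest of the 9 at 1801 bp and ran across the start, with its best-peak summit 590 to 646 bp downstream. The fold was 7.32, 32.2 and 24.0 in shG9a_1, 24.9, 32.1 and 38.4 in shG9a_4, and 38.9, 49.4 and 36.3 in shSCR. The best peak was 51, 706 and 1035 bp wide in shG9a_1, 1029, 1571 and 705 bp in shG9a_4, and 1649, 1677 and 1613 bp in shSCR. In shG9a_1 replicates 2 and 3 and shG9a_4 replicates 1 and 3 the region was split into separate peaks, with a further summit at -586 to -529 bp, upstream of the start. By q-value within each list ENO1 ranked first of the 9 genes in every library except shSCR replicate 3, where HK2 did, whereas by fold HK2 was above ENO1 in all 3 shSCR libraries.

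PKM encodes pyruvate kinase, which makes pyruvate and ATP. Its strongest region (chr15:72523311-72524323, hg19) lay at the start, with best-peak summits from -66 to 136 bp. The fold was 8.34 and 12.4 in shG9a_1 replicates 2 and 3, 10.9, 13.0 and 8.42 in shG9a_4, and 10.99, 13.3 and 9.58 in shSCR, so the groups overlapped throughout. PKM had the most regions reproducible in shSCR in its window, with partial ones at medians of 926.5 and 2263 bp downstream, the second reaching into the window by its edge.

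LDHA is the lactate dehydrogenase subunit that favours the conversion of pyruvate to lactate. Its strongest region (chr11:18415575-18416612, hg19) spanned the start, with best-peak summits from -31 to 88 bp. The fold was 15.1 and 20.8 in shG9a_1 replicates 2 and 3, 17.2, 26.2 and 11.5 in shG9a_4, and 22.8, 43.8 and 28.1 in shSCR. The shG9a_4 replicate 2 value lay above the lowest shSCR value. A weaker region at a median of 1545 bp downstream was called in 1 of 3 shG9a_1, 1 of 3 shG9a_4 and 3 of 3 shSCR libraries.

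**Figure D2:**
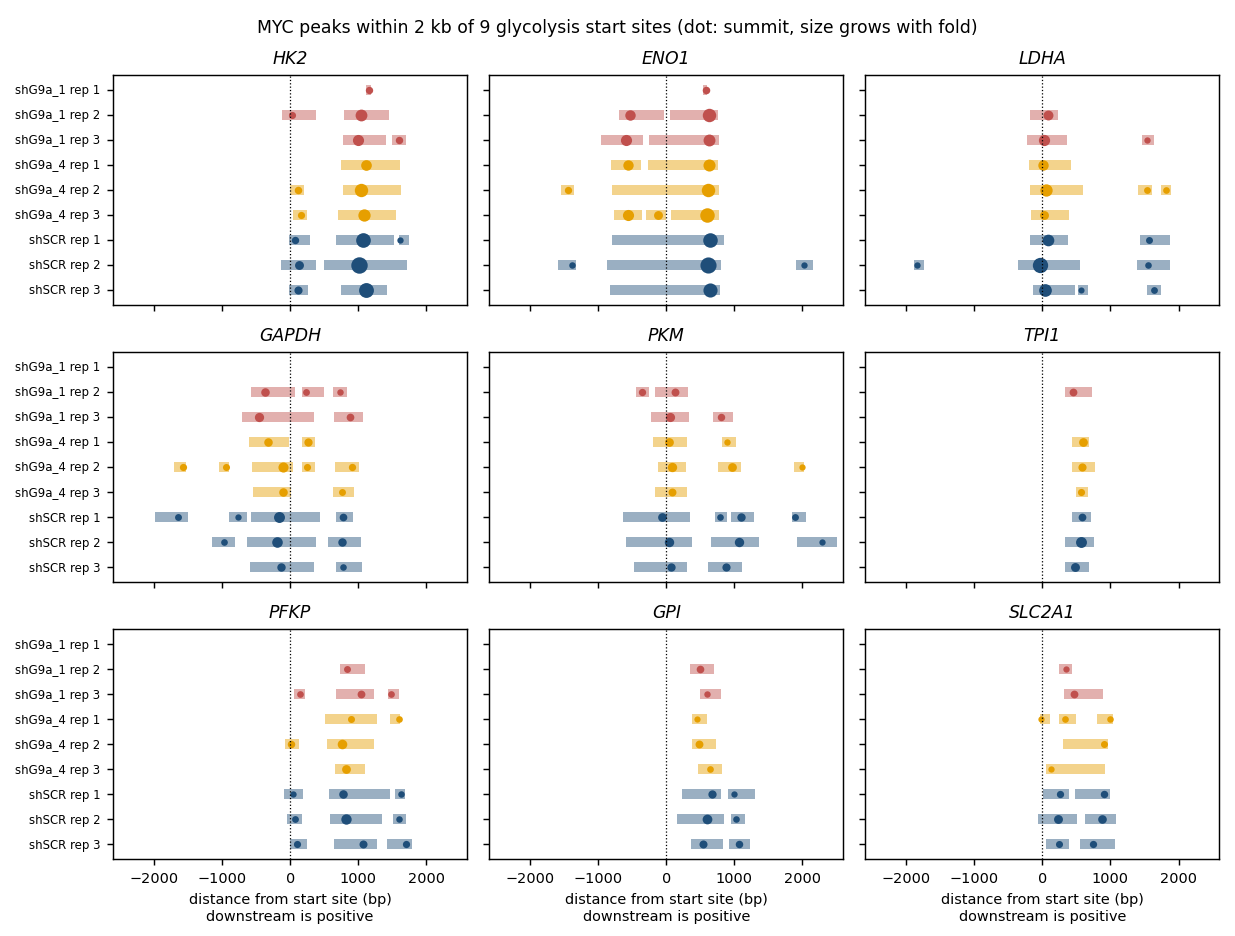
MYC peaks in the window of each glycolysis gene, by library (rows) and distance from the start site in bp (horizontal axis, downstream positive). Bars are peaks, and dots are summits whose size grows with the authors' fold. ENO1 has 1 peak over 1600 bp wide in each shSCR library, TPI1 has no peak in shG9a_1 replicates 1 and 3, and shG9a_1 replicate 1 has peaks at HK2 and ENO1 only.

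Peaks beside the strongest region were called less evenly. Of the 11 other regions in the windows, 7 were reproducible in shSCR. Of these 0 were kept, 6 were partial and 1 was lost, against 36.9%, 53.6% and 9.49% of all reproducible regions. The 7 were set aside as the weaker ones, and kept shares in their deciles ran from 0.775% to 47.9%, so nothing is read from these counts. The median strength of all 11 was 26.9, below the 84.9 of the strongest regions. State and strength moved together and their parts were not separated. In all, the windows held 2, 14 and 15 peaks in shG9a_1, 15, 20 and 13 in shG9a_4, and 22, 22 and 18 in shSCR. Those peaks covered 128, 6073 and 7338 bp in shG9a_1, 6425, 8593 and 6189 bp in shG9a_4, and 11168, 13095 and 9356 bp in shSCR. Every shG9a library covered less of the windows than every shSCR library. The whole lists were also shorter, with 113 to 17454 peaks in shG9a and 20118 to 34738 in shSCR. The lower coverage is therefore not read as particular to these windows.

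Out to 10 kb from the starts, HK2 and LDHA had no further region, so all their MYC peaks at that distance overlapped the 2 kb windows. Kept regions beyond 2 kb lay at a median of 4852.5 bp downstream for ENO1, 4399.5 bp downstream for GAPDH and at -5409 bp, upstream, for GPI. SLC2A1 had a partial region at -8074 bp, upstream, whose strength of 68.8 was above the 60.8 of the region at its start. It was called in 1 of 3 shG9a_1, 1 of 3 shG9a_4 and 3 of 3 shSCR libraries. RefSeq lists neighbouring starts within 2 kb for ENO1, HK2, SLC2A1 and PFKP, among them ENO1-AS1, HK2-DT, SLC2A1-DT and PFKP-DT, so a peak there cannot be assigned to 1 gene.

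The height of the peaks was then compared between groups on a scale that does not depend on the local background. Pileup, the number of fragments stacked at the summit, was recovered from the authors' fold and p-value and divided by the lowest background shared in that library, giving pileup over background. In this bulk assay, fewer cells with MYC bound at a site and less MYC bound per cell cannot be told apart. A shift shared by all regions of a library also enters pileup over background, and the source of such a shift was not tested. At 6 of the 9 genes every shG9a value lay below every shSCR value. These were HK2, ENO1, LDHA, GAPDH, GPI and, over the 7 libraries that called it, TPI1. Among the 5245 regions called in all 8 libraries other than shG9a_1 replicate 1, such separation held for 56.1%, and the reverse for 0. TPI1 was not among those regions, so that share is set beside the other genes only.

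HK2 had 86.5 and 91.3 times the background in shG9a_1 replicates 2 and 3, 44.0, 117 and 62.1 times in shG9a_4, and 143, 170.1 and 152 times in shSCR. The mean was 80.2 ± 28.2 (SD, n = 5) with the G9a hairpins and 155 ± 13.9 (SD, n = 3) in shSCR. LDHA had 62.2 and 93.4 times the background in shG9a_1, 49.0, 96.4 and 43.6 in shG9a_4, and 114, 158 and 123 in shSCR. ENO1 had the highest pileup of the 9 genes in every library except shSCR replicate 3, with 129.7 and 108 in shG9a_1, 67.8, 129.98 and 83.4 in shG9a_4, and 167, 186 and 139.7 in shSCR. At these 3 genes, shG9a_4 replicates 1 and 3 were the lowest of the 8 libraries.

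GAPDH had 59.5 and 45.6 times the background in shG9a_1, 27.6, 58.7 and 24.2 in shG9a_4, and 71.4, 90.2 and 61.3 in shSCR. PKM had 40.5 and 41.5 in shG9a_1, 27.6, 48.2 and 19.4 in shG9a_4, and 53.6, 63.5 and 46.6 in shSCR. At PKM the groups overlapped, since shG9a_4 replicate 2 lay above shSCR replicate 3. TPI1 had 27.0 in its only shG9a_1 library, 28.9, 35.6 and 15.5 in shG9a_4, and 37.9, 59.4 and 44.1 in shSCR.

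GPI had 27.0 and 24.9 times the background in shG9a_1, 21.4, 29.4 and 15.5 in shG9a_4, and 33.5, 57.4 and 36.8 in shSCR. PFKP had 27.0 and 24.9 in shG9a_1, 18.8, 48.2 and 21.3 in shG9a_4, and 35.7, 57.4 and 31.9 in shSCR. SLC2A1 had 16.2 and 24.9 in shG9a_1, 12.6, 21.0 and 12.6 in shG9a_4, and 31.2, 45.1 and 22.1 in shSCR. At PFKP and SLC2A1 the groups overlapped by 1 shG9a library each. In shG9a_1 replicate 1, HK2 had 24.9 and ENO1 had 30.5, the lowest of all libraries at both genes, while the other 7 genes had no call and so no value.

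**Figure D3:**
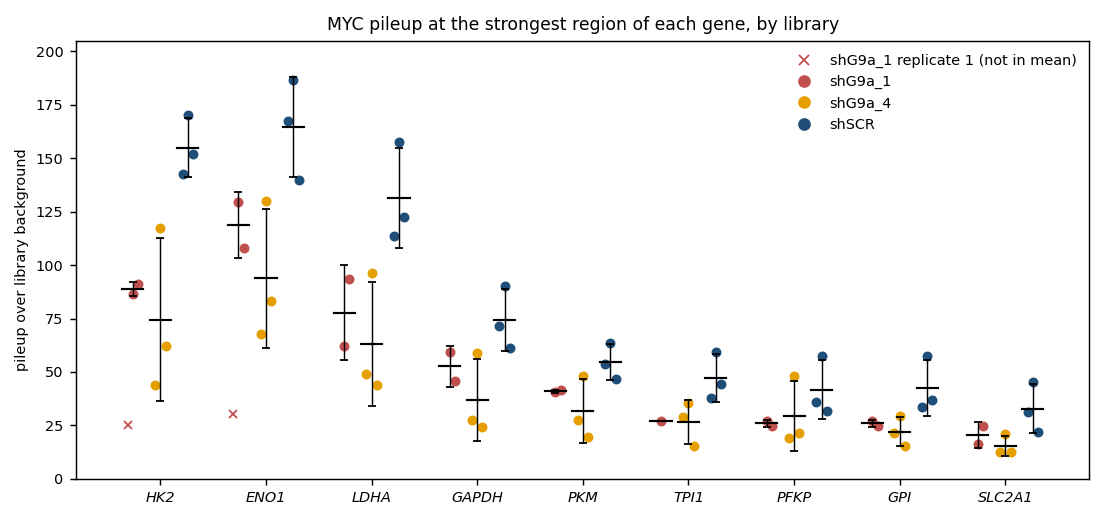
Pileup over library background (vertical axis) at the strongest MYC region of each glycolysis gene, 1 point per library, with the groups shG9a_1, shG9a_4 and shSCR from left to right. Bars are means with SD, and the crosses for shG9a_1 replicate 1 are not in them. HK2, ENO1 and LDHA have the highest values, and at each of them all shG9a points lie below all shSCR points.

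MYC pileup was lower with the G9a hairpins than in shSCR at 5 of the 8 genes tested, HK2, LDHA, SLC2A1, GPI and GAPDH. All regions were fitted together with limma over the 8 libraries, and p-values were adjusted by the Benjamini-Hochberg method over all 5245 regions. TPI1 was not among them because shG9a_1 replicate 3 had no call there. Over all regions 4006, or 76.4%, were called lower and 0 higher (0 also by the exact permutation test after adjustment), and the count among the glycolysis genes is read against that share. The median log2 difference was -0.81 over the 8 genes and -0.85 over all regions.

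HK2 differed by -0.99 on the log2 scale (SE 0.327, 95% interval -1.63 to -0.35, limma adjusted p = 0.0092), that is 0.505 of the shSCR level. LDHA differed by -0.96 (limma adjusted p = 0.0108) and SLC2A1 by -0.86 (limma adjusted p = 0.0176). GPI differed by -0.81 (limma adjusted p = 0.023) and GAPDH by -0.80 (limma adjusted p = 0.0247). ENO1, PKM and PFKP did not pass, at -0.66, -0.64 and -0.61, with limma adjusted p of 0.0551, 0.0637 and 0.0745. The SE was the same 0.327 for each gene, because the fit pooled the spread over all regions. The p-values therefore do not measure each gene's own spread between libraries. The intervals of all 8 overlapped and differences between genes were not tested, so no order among them is read.

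The differences at these genes lay near that of the median region. When each library was centred on its median region, the difference lay between -0.14 and 0.23 at the 8 genes and none passed the test, with 0 of 8 also at an unadjusted p of 0.05 (limma, lowest adjusted p = 0.762). By that measure 1 of 5245 regions (0.0191%) was lower and 4 (0.0763%) were higher, against 1 lower (0.0191%) and 5 higher (0.0953%) for shG9a_4 alone. The 5 calls also rested on single libraries: without shSCR replicate 2 none of the 8 genes passed, at -0.92 to -0.35 (2 before adjustment; limma, lowest adjusted p = 0.0729), and without shG9a_4 replicate 2 all 8 did, at -1.18 to -0.79. Leaving out shG9a_1 replicate 2 left 2 calls, and leaving out shG9a_1 replicate 3, shG9a_4 replicate 3 or shSCR replicate 1 left 3 each. The lowest median pileup over background at the regions tested, 22.6 and 22.3, was in shG9a_4 replicates 1 and 3, which also had the highest recovered depths. Among 5 libraries of like depth (shG9a_1 replicate 3, shG9a_4 replicate 2 and all of shSCR) the 8 differences were -0.61 to -0.22 and none passed, with 0 of 8 also before adjustment (limma, lowest adjusted p = 0.137). Over the peak's own local background, 3 of 8 passed, and GAPDH at -0.37 and SLC2A1 at -0.53 did not (limma, adjusted p = 0.301 and 0.15). In an exact permutation test for each region, whose smallest possible p was 0.0179, none of the 8 passed after adjustment and 3 did before it.

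**Figure D4:**
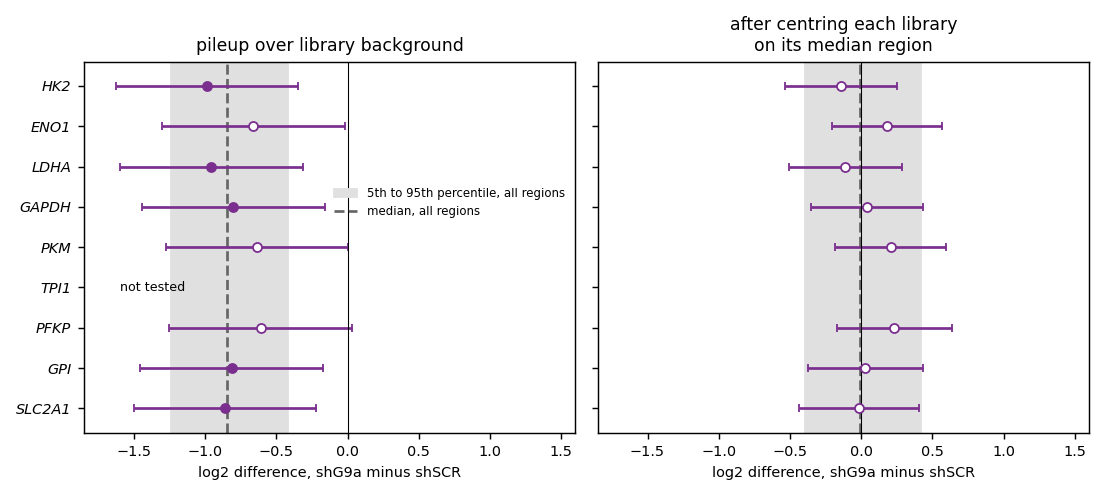
Log2 difference in pileup over background, shG9a minus shSCR (horizontal axis), at each glycolysis gene with its 95% interval from limma, before (left) and after (right) centring each library on its median region. Filled points passed an adjusted p of 0.05, the dashed line is the median of all 5245 regions and the grey band their 5th to 95th percentile. On the left the 8 genes lie from -0.99 to -0.61 around the median of -0.85, and on the right they lie from -0.14 to 0.23 around 0.

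Each hairpin was also set against the same shSCR libraries. With shG9a_4, 7 of 8 genes were lower, all but PFKP, against 4503 of all regions (85.9%). HK2 differed by -1.18 (limma adjusted p = 0.0044), LDHA by -1.14 (limma adjusted p = 0.0053) and GAPDH by -1.11 (limma adjusted p = 0.0062). PFKP differed by -0.58 (limma adjusted p = 0.114), which was above the differences of 94.4% of regions. Without shG9a_4 replicate 3 or without shSCR replicate 2, 2 genes passed, without shG9a_4 replicate 1, 4 did, and after centring on the median region none did (limma, lowest adjusted p = 0.576; 0 before adjustment). All 7 calls were also lost over the peak's own local background (limma, lowest adjusted p = 0.0548, with 3 under 0.05 before adjustment). Among libraries of like depth the median over the genes was -0.36 against -1.01. There shG9a_4 had replicate 2 alone, which had the highest pileup over background of that hairpin at every gene. With shG9a_1, which had 2 libraries in the fit, none of the 8 genes passed, against 11 of all regions (0.21%), and their differences ran from -0.80 at HK2 to -0.40 at PKM (limma, lowest adjusted p = 0.15). Before adjustment 1 of them, HK2, was under 0.05. Without shG9a_4 replicate 2, which enters through the shared estimate of the spread, 3 passed.

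The hairpins were then compared with each other. The difference, shG9a_1 minus shG9a_4, was -0.05 to 0.62 at the 8 genes and none passed (0 also before adjustment; limma, lowest adjusted p = 0.75). Of all 5245 regions 0 passed, and 267 were under 0.05 before adjustment. The interval of that difference at HK2 ran from -0.42 to 1.17, so the data are compatible with a true difference anywhere in that range, 0 included. Without shG9a_4 replicate 2, 3 of the 8 genes and 1854 regions were higher in shG9a_1 than in shG9a_4.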

How the data were processed

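ChIP-seq used 10 M cells per reaction, the MYC antibody N262 and single 50 bp reads, planned at 25 M per sample, per the labels' protocols. Of 18 samples, the 9 MYC libraries each had 1 peak list and the 9 DNA inputs were not used here. Tools named in the submitters' processing notes are MACS2 2.1.0, Picard 2.7.1, SAMtools 1.3 and STAR 2.5.2a, and builds are hg19 and GRCh37. Not given in the sources used here are their roles, the control used in calling peaks, the caller's settings and the read filters. Each deposited list gives, per peak and per library without pooling, a score, a fold enrichment (a ratio of summit pileup to local background), a −log10 p-value and a −log10 q-value, all the authors' values. They served to describe and rank peaks within a list.

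Read depth was not listed. Under a Poisson model, the authors' fold and p-value together determine the pileup, and it came out whole for 100% of peaks (tolerance 0.001 in −log10 p). Pileup over background is this pileup divided by the library's lowest background, counting only values found at 1% or more of its peaks. Relative depth is that background divided by the shortest peak, which is 51 bp in shG9a_1 replicate 1 and makes its depth of 2.36 uncertain. On chromosomes 1 to 22 and X (192 of 151062 peaks left out), peaks were merged at an overlap of at least 1 bp. A region has a value only where a peak was called, so the test covered regions called in all 8 libraries other than shG9a_1 replicate 1. Values on the log2 scale were fitted with limma 3.58.1 in R 4.3.3, with Benjamini-Hochberg adjustment over all regions and a threshold of 0.05. The steps were tested on simulated data. For limma these data held no shift shared by a whole library, so that test does not cover such shifts.

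All 9 genes are named by rule, with promoters of highest and lowest strength shown. The genes, windows and tests were chosen with earlier results of these data known. Other pathway genes were not analysed here, since no hg19 annotation was used. Replicate numbers were not read as pairs. Residuals of libraries with the same number correlated at -0.0226 to 0.154 (median 0.0548). Those of libraries with different numbers correlated at -0.144 to 0.0805 (median -0.0383). These values do not settle whether the libraries were paired. Alternatives are in the closing section. Python 3.11.15 with pandas 2.3.3 and scipy 1.17.1 made the other values.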

Additional observations from a re-analysis of the deposited data

How the results depend on the processing

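Several counts changed with the limits set on peaks. At a −log10 q of at least 5, 5 genes were kept and 4, SLC2A1 among them, were partial, and at a fold of at least 5, 3 were partial. With equal peak numbers, a setting that also leaves out shG9a_1 replicate 1, 0 were partial, and the mean of genes called, shG9a minus shSCR, was 0.0667, against -0.2 without that library and -1.333 with it. Leaving out 1 library gave differences of -1.6 to -0.2 genes, 8 to 9 kept, 0 to 1 partial, 0 lost and 9 reproducible. Windows of 1 or 5 kb and summits in the window gave the reported states. For both hairpins minus shSCR, 4006 of 5245 regions were lower. This became 1 lower and 4 higher after median centring, 1509 lower over the local background, 1111 of 8265 with libraries of like depth, 0 of 109 with all 9 libraries, and 0 by the exact permutation test. Leaving out 1 library gave 368 to 5200. For shG9a_1 minus shSCR, 11 regions were lower. This became 0 after median centring, 22 with the highest pileup of any peak, 584 over the local background, 2 of 10034 in the looser set of regions, 1521 with a replicate block, 0 with all 9 libraries, 806 at like depth, and 0 to 2847 when 1 library was left out. For shG9a_4 minus shSCR, 4503 were lower. This became 1 lower and 5 higher after median centring, 605 over the local background, 0 with all 9 libraries, 24 at like depth, and 2200 to 5303 when 1 library was left out. Between hairpins, 0 to 1854 regions were called higher in shG9a_1 when 1 library was left out. With a replicate block 8 of 8 glycolysis genes were lower with both hairpins and 1 of 8 with shG9a_1, but whether the replicate numbers pair the libraries was not settled. In the looser set of regions TPI1 could be tested and was lower by limma, at -0.83 (adjusted p = 0.0421; with the same libraries but without shG9a_1 replicate 3, 0.0608).

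Of the values for single genes, 354 kept direction and side of the threshold, 66 lost the threshold, 14 passed it and 30 changed sign. After median centring, both hairpins minus shSCR gave 0.18 at ENO1, 0.041 at GAPDH, 0.030 at GPI, 0.23 at PFKP and 0.21 at PKM. With shG9a_1 it gave 0.20 at ENO1, 0.17 at GAPDH, 0.034 at PFKP, 0.27 at PKM and 0.023 at SLC2A1. With shG9a_4 it gave 0.16 at ENO1, 0.063 at GPI, 0.43 at PFKP and 0.14 at PKM. At like depth PFKP was 0.26 with shG9a_4. The difference between hairpins, shG9a_1 minus shG9a_4, turned negative at like depth for ENO1 (-0.27), GAPDH and HK2 (-0.36 each), GPI (-0.24), LDHA (-0.047) and PKM (-0.22). Over the local background it was -0.17 at ENO1, -0.063 at GAPDH, -0.18 at HK2 and -0.059 at PKM. With all 9 libraries it was -0.26 at ENO1 and -0.23 at HK2, and after centring it was -0.067 at GPI. At PFKP it turned positive without shG9a_1 replicate 3 (0.0087) and without shG9a_4 replicate 2 (0.37), in a range of -0.31 to 0.37 over all libraries left out. None of these single-gene values that changed sign passed the test. The cause was not tested. A region without a call has no value, so a missing call, as at TPI1 in shG9a_1 replicate 3, does not show that MYC was absent, and differences at weak regions are seen only where all 8 libraries called them.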
